A study of Mus musculus with 24 samples.

Results

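The serine/arginine-rich (SR) proteins, the Tra2 proteins, the heterogeneous nuclear ribonucleoproteins (hnRNPs) and the polypyrimidine tract binding (PTB) proteins are RNA-binding proteins (RBPs) that decide which exons of a pre-mRNA are kept. Their own transcripts were examined here for sites of protein protection during the differentiation of mouse erythroid cells. Genes were chosen by name, as the protein-coding genes of the mm10 annotation whose symbols begin with Srsf, Hnrnp, Ptbp or Tra2. Of the 21951 protein-coding genes, 36 met this rule and 35 were analysed, comprising 11 Srsf, 19 Hnrnp, 3 Ptbp and 2 Tra2 genes. No measured value entered the rule by name, but the step from 36 to 35 genes used the protected sites in and near each gene.

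Protein interaction profile sequencing (PIP-seq) maps RNA that is shielded from nucleases by bound protein. The cells were MEL cells, which derive from a mouse erythroleukemia, are held at an early erythroid stage, and resume differentiation when DMSO is added to the medium. Cells were taken at day 0 (undifferentiated), day 2 and day 4 after induction, fixed with formaldehyde, and divided between a nuclease that cuts single-stranded RNA (ssRNase) and one that cuts double-stranded RNA (dsRNase), applied either with proteins still in place or after their digestion. The 24 libraries therefore formed 12 groups of 2 replicates. All groups share the cell line and the fixation, and the day 0 cells carried no DMSO. Whether the line is 1 clone is not given in the sources used here, and it stands for erythroid maturation in culture only.

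Many genes of these families control their own output through a "poison" exon, a cassette that carries a premature stop codon. When it is included, the transcript is destroyed by nonsense-mediated decay (NMD), and the protein of the gene often promotes its inclusion, so that an excess of protein lowers its own mRNA. SR and Tra2 proteins typically favour exon inclusion from purine-rich enhancers, whereas hnRNPs and PTB proteins more often repress exons from intronic or exonic silencers. Erythroid maturation is known for broad, timed changes of splicing and intron retention.

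The measurement was the protein-protected site (PPS), an interval where reads were enriched with proteins present over reads obtained after protein removal. In the annotation used, 16 poison exons were found in 12 of the 35 genes, as internal exons of NMD transcripts that overlap no exon of a protein-coding transcript. Whether each carries a premature stop codon was not checked. Of the 16, 3 lie beyond the last exon of the protein-coding transcripts and are not cassettes between such exons. The name is used here for all 16. At 10 places in 9 genes, the same stretch, overlapping a poison exon at least in part, lay in a PPS at all 3 days. The central 30 nt of each is shown 5′ to 3′ (mm10), or the 30 nt around the splice site where one lay inside, since these are the protected sequences that the later sections return to. Stretches beside a poison exon that did not overlap it are not shown. Some of them, as near that of Srsf7, also lay in PPSs at all 3 days. Capitals mark bases of the poison exon and lower case its flanking intron.
Srsf3, chr17:29039575-29039604, plus strand: AGGCTGGCCAGTCGTCAGGTTGCACCGCCC
Srsf4, chr4:131886290-131886319, plus strand: AGTTGTAGGACAAAGgtgagcagagatcca
Srsf11, chr3:158023228-158023257, minus strand: AAAAATCGAGTACAGgtgatgaaatcttgg
Tra2a, chr6:49252828-49252857, minus strand: GCAAGAGTGAAGTAGAATTAAAAGAATCTG
Tra2a, chr6:49252936-49252965, minus strand: GAAGCACTTGAATATTTTTTTAAGGCTATT
Tra2b, chr16:22259029-22259058, minus strand: GGAAGAATGAAGAAAAGAAATAAAAATGAA
Hnrnpa1, chr15:103246407-103246436, plus strand: GTTGCTGGCCAAAAGgtgagtttttgtgac
Hnrnpd, chr5:99962190-99962219, minus strand: gtttgtacccgccagCGGGAACTTCATTGC
Hnrnpl, chr7:28817320-28817349, plus strand: aaccatgtgatgcagGGTCGCAGTGTATGT
Hnrnpu, chr1:178323951-178323980, minus strand: TCGATGGAGTTAGAGgtacgtagactataa
Of these 10 stretches, 4 span the 5′ splice site of the poison exon (Srsf4, Srsf11, Hnrnpa1, Hnrnpu), 2 span its 3′ splice site (Hnrnpd, Hnrnpl), and 4 lie inside it (Srsf3, both of Tra2a, Tra2b). Not all were in both replicates of each day. A single call of a single replicate held those of Srsf3 (score 5.4) and the first of Tra2a at day 0. The same was true of Srsf11 and Hnrnpl at day 2 and of Hnrnpa1 at day 4. The Tra2b stretch holds no C and contains GAAGAA, the kind of sequence that Tra2 proteins are known to recognise, in more than one place.

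Each day was represented by 1 list of PPSs merged over the libraries of that day. PPSs of 20 to 40 nt, the size class that the study set aside as possible ribosome footprints, made up 17.1%, 29.5% and 19.98% of the lists of days 0, 2 and 4 and were left out. After this, 114907, 119487 and 122038 PPSs remained. Every PPS names the nuclease and replicate of the calls within it, which gave 4 call sets a day. ssRNase sets held 49445 to 75372 calls, and dsRNase sets held 28673 and 33697 at day 0, 31078 and 15190 at day 2, and 56981 and 41775 at day 4. The read depth behind each set is unknown from these lists. All 10 erythroid marker genes examined held PPSs, 8 of them with higher exonic coverage at day 4 than at day 0 by the rule given next (19% of all genes), and none of 5 lymphoid, 4 myeloid and 3 hepatocyte markers held one.

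Coverage is the percentage of the nucleotides of a class (exons, introns or 3′ UTR of a gene) that lay in a PPS on its strand, and a difference of 2 coverages is given in percentage points. Values are pooled over the libraries of a day unless replicates are named. A gene was counted as changed where its pooled coverage moved by 5 points or more and the 2 replicates of one day both lay above the 2 of the other. Replicate values share merged coordinates, so their spread is a lower limit, and with 2 replicates a day an exact two-sided permutation test cannot fall below 0.333. No p-value is therefore given, and the counts are to be read beside the share of all protein-coding genes with a PPS that met the same rule. In simulated lists the rule also called many genes that had not changed, so a called change is a description. In bulk lists of this kind, more transcript and more protein on each transcript cannot be told apart, since RNA levels were not analysed here.

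These transcripts were among the more densely protected of the transcriptome. Their median exonic coverage was 30.3%, 23.5% and 32.1% at days 0, 2 and 4, against 7.84%, 7.06% and 7.74% over the 9460 genes with an exonic PPS. Replicate medians were 23.6% and 24.5%, 15.9% and 17.2%, and 30.1% and 23.8% on the 3 days. The contrast was wider in introns, where the medians of 13.4%, 10.7% and 9.71% compared with 0.54%, 0.70% and 0.54% over all genes with an intronic PPS. The genes held 1097, 1022 and 1071 PPSs on the 3 days, or 0.955%, 0.855% and 0.878% of the lists. Srsf12 was the only member without a PPS at any day. It enters the medians of the set at 0, over 35 genes in exons and 34 in introns, whereas the medians over all genes leave out genes without a PPS, and counts of changes are over the members with a PPS.

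Day 2 was the time of lowest exonic protection, and at day 4 the median was back near that of day 0, although single genes had moved in both directions. From day 0 to day 2 the median change was -9.47 points (range over the 4 pairs of replicates -9.65 to -8.92), against -0.64 points over all genes. Exonic coverage was lower at day 2 in 22 of 34 genes, whereas 21.1% of all genes met that rule, and it was higher in 3, with 9.8% of all genes. Among genes with a mean exonic coverage of 20% or more, a background chosen after seeing the data that is closer to these genes in coverage, the shares were 44% lower (19 of 27 members) and 13.8% higher (3 of 27).

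From day 0 to day 4 the median change was 0.03 points (pairs -1.79 to 0.75). Coverage was higher in 8 of 34 genes and lower in 10, where 19% and 16.9% of all genes met these rules. In the background of well-covered genes, the shares were 34.3% and 24%, and those of the members were 7 and 8 of 27. Without replicate 2 of day 4 the count of lower genes was 6, and with exons of all transcripts that of higher genes was 3. For these settings the share of all genes was not computed. The day 4 shares of 25.9% and 29.6% in these well-covered members thus lie near that background, while the day 2 fall (70.4%) is more frequent than in either. The day 2 fall was larger in dsRNase calls. The median change was -9.30 points in dsRNase calls (pairs -11 to -7.49, all genes -0.86) and -3.05 points in ssRNase calls (pairs -4.22 to -0.39, all genes 0.13). In dsRNase calls 19 genes were lower (19% of all genes) and 2 higher (3.31%), and in ssRNase calls 11 were lower (9.14%) and 3 higher (10.5%). At day 4, dsRNase calls gave 8 higher (15.8%) and 6 lower (11.5%), and ssRNase calls 4 higher and 5 lower (12.1% of all genes in either direction). The day 2 dsRNase sets were small, with PPSs of 2206894 and 1151667 nt in all against 2272906 and 2625314 nt at day 0, and the larger share of short PPSs left out at day 2 also moves with the fall. With PPSs of all lengths the day 2 median was -7.32 points. The part of set size in the fall was not tested.

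**Figure D1:**
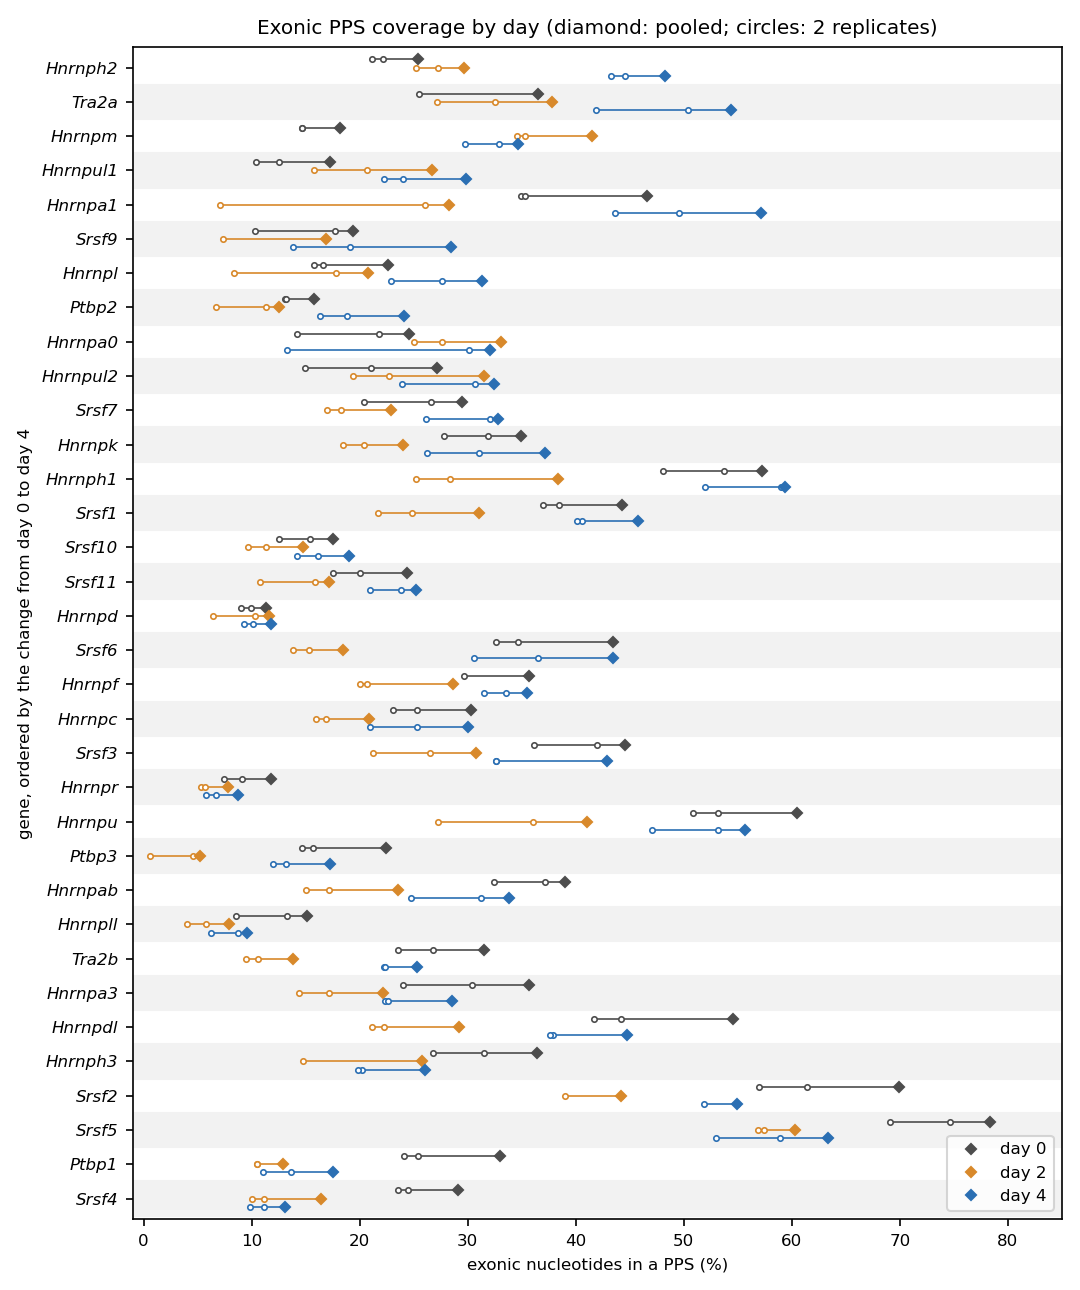
Exonic PPS coverage (x axis, percent of exonic nucleotides) of the 34 genes with a PPS (y axis, ordered by the change from day 0 to day 4). Diamonds give the coverage pooled over the libraries of a day, open circles the 2 replicates, and lines join them; the diamond of day 2 lies below that of day 0 in 27 genes, and Hnrnph2, Tra2a and Hnrnpm lead the rises while Srsf4 and Ptbp1 close the list.

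The classical SR proteins bind exonic enhancers and recruit the spliceosome. None of the 10 Srsf genes with a PPS gained exonic coverage at day 4 under the rule (19% of all genes), 3 lost it (16.9%), and 8 had lost it at day 2 (21.1%). Srsf2, a splicing activator that also acts in transcription elongation, stood at 56.9% and 61.4% in the replicates of day 0, at 39.0% and 44.2% at day 2 and at 54.9% and 51.8% at day 4. The replicates of the 3 days did not overlap. Pooled, its coverage fell from 69.9% to 44.2% at day 2, a change of -25.7 points, and was 54.9% at day 4. The nucleases differed here: ssRNase coverage of Srsf2 was higher at day 4 (48.5% against 30.6%) and dsRNase coverage was 48.0% against 53.7%, so the pooled fall at day 4 goes with a larger overlap of the stretches that the nucleases left.

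Srsf5, an SR protein with a pair of RNA recognition motifs, was the most covered gene of the set. Its replicates gave 74.6% and 69.1% at day 0, 56.9% and 57.4% at day 2, and 58.9% and 53.0% at day 4. Both later days lay below day 0, with a pooled fall from 78.4% to 63.3% at day 4. Of its exonic positions, 54.7% are centred in a 30-mer that occurs elsewhere in the genome, which reads allowed to map more than once could share, but the remaining positions gave 76.4% and 55.2%, a fall as well. Srsf4, a close relative of Srsf5 and Srsf6, had the largest exonic fall at day 4. It gave 23.6% and 24.5% at day 0, 10.0% and 11.1% at day 2, and 11.1% and 9.84% at day 4, and fell from 29.1% to 13.1% in the pooled lists. Its introns followed, with 8.57% and 12.1% at day 0 and 3.93% and 3.57% at day 4.

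Srsf6 had the third-largest fall at day 2, yet its pooled coverage was 43.4% at day 0 and 43.5% at day 4. The replicate values were 32.6% and 34.7% at day 0, 15.3% and 13.8% at day 2, and 30.6% and 36.5% at day 4. Its introns moved differently, from 13.5% to 21.4% at day 2 and 18.9% at day 4. Srsf1, the founding SR protein and a product of a known proto-oncogene, showed the same dip in its exons, with 38.5% and 37.0%, then 24.8% and 21.7%, then 40.6% and 40.1%. Its few intronic nucleotides rose from 18.8% to 26.7% in the pooled lists, but the replicates overlapped (9.45% and 18.8% at day 0, 26.7% and 18.2% at day 4).

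Srsf3 and Srsf7, the SR proteins that also act as adaptors of mRNA export, both dipped at day 2. Srsf3 gave 42% and 36.1% at day 0, 26.5% and 21.3% at day 2, and 32.6% and 32.7% at day 4. The nucleases differed in Srsf3. Its ssRNase coverage was 31.9%, 17.0% and 9.01% at days 0, 2 and 4, with day 4 pairs of -23.6 to -11.0 points. Its dsRNase coverage was 40.3%, 26.7% and 37.6%, with day 4 pairs of -9.09 to -0.11 points. Of its exonic positions, 46.0% recur elsewhere, and the others gave 26.1%, 16.9% and 31.1%. Srsf7 gave 26.6% and 20.4%, then 17.0% and 18.3%, then 32.0% and 26.1%. In the introns of Srsf7, coverage fell from 17.1% to 9.64% at day 4, with replicates of 17.1% and 11.2% against 7.68% and 8.05%. Srsf10, which represses splicing once dephosphorylated, had exonic values of 17.6% at day 0 and 19.0% at day 4 but lost intronic coverage, from replicates of 11.9% and 14.5% to 5.59% and 2.61%.

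Srsf11 and Srsf9 completed the SR set. Srsf11 fell from 24.4% to 17.1% at day 2. Srsf9, which has a short RS domain, gave 19.4% at day 0 and 28.4% at day 4, a difference that its replicates did not separate (17.7% and 10.3% against 13.9% and 19.1%). Over the 10 SR genes with a PPS, the day 2 dip appeared in 8. With both nucleases joined, Srsf2, Srsf4 and Srsf5 were still lower at day 4 than at day 0. For Srsf2 the day 4 pairs were 9.49 to 27.4 points in ssRNase calls and -5.19 to 10.4 in dsRNase calls.

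The Tra2 genes, whose proteins bind GAA-rich enhancers and join SR proteins on them, moved in opposite directions in pooled exonic coverage at day 4. Tra2a gave 36.5% and 25.5% at day 0, 32.6% and 27.2% at day 2, and 50.4% and 41.9% at day 4, so that only day 4 stood apart. Pooled, it rose from 36.5% to 54.4%, and its introns rose from 13.4% to 19.0%. Tra2b gave 23.6% and 26.8%, then 10.6% and 9.45%, then 22.2% and 22.3%. It fell from 31.5% to 13.9% at day 2 and stood at 25.3% at day 4. Of its exonic positions, 44.0% recur elsewhere as 30-mers. The others gave 19.4%, 10.2% and 12.9%.

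Among the hnRNPs, 6 of 19 genes gained exonic coverage at day 4 (19% of all genes) and 4 lost it (16.9%). At day 2 the counts were 3 (9.8%) and 11 (21.1%). Hnrnph2 had the largest exonic rise of all members. It encodes a close relative of hnRNP H1 that, like hnRNP F, binds runs of G. Its replicates gave 22.2% and 21.1% at day 0, 27.2% and 25.2% at day 2, and 44.5% and 43.2% at day 4, each day above the one before. Pooled coverage rose from 25.4% to 48.2%. Of its exonic positions, 40.7% recur elsewhere as 30-mers, and the others gave 11.8%, 18.3% and 27.1%, and its introns held no PPS before day 4 (0, 0 and 9.78%).

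The other members of the H/F group did not share this rise. Hnrnph1, which holds the highest-scoring PPS of the set at day 4, gave 48.0% and 53.8%, then 25.2% and 28.4%, then 59.0% and 52.0%. Hnrnph3 fell at day 4, with 31.5% and 26.8% at day 0 against 20.2% and 19.9%, while its introns rose from 8.33% to 14.2%. Hnrnpf gave 35.7% and 35.5% on days 0 and 4. Of its exonic positions, 64.2% recur elsewhere, and the others gave 20.3%, 17.5% and 8.72%, a fall that the full value does not show.

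Hnrnpm, which encodes an alternative splicing regulator found in early spliceosomal complexes, had the largest rise at day 2 and stayed high at day 4. Its replicates gave 14.7% and 14.6% at day 0, 34.5% and 35.3% at day 2, and 32.8% and 29.8% at day 4. No replicate of day 0 came near the later ones, and the pooled changes were 23.3 and 16.5 points. Its introns rose from 7.49% to 17.0% at day 4, with replicates of 6.02% and 4.07% against 13.7% and 13.2%. Only 0.08% of its exonic positions recur elsewhere. Hnrnpul1 and Hnrnpul2, relatives of the scaffold protein hnRNP U, rose as well. Hnrnpul1 went from 12.5% and 10.4% to 20.7% and 15.8% at day 2 and 24% and 22.3% at day 4. Hnrnpul2 moved less, from 21.1% and 14.9% to 30.7% and 24% at day 4.

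Hnrnpa1, an abundant repressor that binds UAGGG motifs, gave 34.9% and 35.3% at day 0, 7.09% and 26.0% at day 2, and 49.5% and 43.6% at day 4. The pooled rise at day 4, from 46.6% to 57.1%, was not seen outside repeated sequence. In all, 79.8% of its exonic positions recur elsewhere, and the others gave 33.8%, 28.4% and 30.4%. Hnrnpa3 has an even higher repeated share (85.8%) and fell at both days, from 35.6% to 22.2% and 28.5%, although its ssRNase coverage was 14.5%, 19.8% and 19.5%. Hnrnpa0, a gene without introns, was higher at day 2 (27.6% and 25.1% against 14.2% and 21.8%), and its replicates of day 4 lay far apart at 30.1% and 13.3%.

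Hnrnpl, which binds CA repeats, rose at day 4 from 15.8% and 16.6% to 27.6% and 22.9%, after 8.36% and 17.8% at day 2. Its paralog Hnrnpll, known from lymphoid splicing of the CD45 transcript, stood at 15.1%, 7.92% and 9.59%. Hnrnpk, a poly(C) binding protein, dipped at day 2 (20.4% and 18.4%) between 31.9% and 27.8% at day 0 and 31.1% and 26.2% at day 4. Hnrnpu, a nuclear scaffold protein, did so from 50.9% and 53.2% to 27.3% and 36.0%, with 53.2% and 47.0% at day 4. Its introns fell from 33.0% to 18.1% at day 2 and 25.0% at day 4.

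Hnrnpdl, whose own splicing is known to be autoregulated, had the second-largest fall of the set at day 2, with 44.2% and 41.7% against 21.1% and 22.2%, and recovered in part to 37.9% and 37.6%. Hnrnpab, its near relative, fell from 37.2% and 32.5% to 15.0% and 17.2% and reached 31.2% and 24.7%. In its introns the pooled value fell from 18.1% to 9.03% at day 4, but the day 0 replicates of 16.6% and 7.97% overlapped those of day 4 (9.03% and 2.9%). Hnrnpc, which masks uridine tracts from other splicing factors, gave 30.3%, 20.8% and 30.1%. Hnrnpd, a regulator of AU-rich mRNAs, stayed at 11.3%, 11.6% and 11.8%, and Hnrnpr at 11.8%, 7.82% and 8.71%, with changes that met no rule.

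The PTB genes split. Ptbp1, the general repressor that binds pyrimidine tracts, lost exonic and intronic protection. Its exonic replicates gave 25.4% and 24.1% at day 0, 10.5% and 10.5% at day 2, and 13.6% and 11.1% at day 4. Its introns gave 23.2% and 22.0%, then 17.8% and 16.4%, then 8.84% and 3.29%, the largest intronic fall of the set at day 4 (-17.3 points pooled). PPSs within the gene numbered 36, 23 and 16. The exonic fall was seen in dsRNase calls (-13.3 points, pairs -15.7 to -9.57), while ssRNase calls gave 8.61% at day 0 and 3.42% at day 4 with replicate pairs of both signs. The intronic fall was seen in ssRNase calls (25.0% to 8.19%), while dsRNase calls gave 6.34% on both days, with pairs of -4.84 to 2.69 points. Ptbp2, the neural paralog whose mRNA Ptbp1 is known to repress, gave 13.1% and 13.2%, then 6.66% and 11.3%, then 18.8% and 16.4%. It was counted as higher at day 4, but the nucleases differed. In dsRNase calls the replicates went from 0 and 2.66% to 14.0% and 4.61%, and in ssRNase calls from 13.1% and 13.2% to 10.1% and 11.7%. Ptbp3, the paralog found mainly in blood cells, nearly lost exonic protection at day 2 (4.59% and 0.61%) from 15.7% and 14.6%, and reached 13.2% and 11.9% at day 4.

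**Figure D2:**
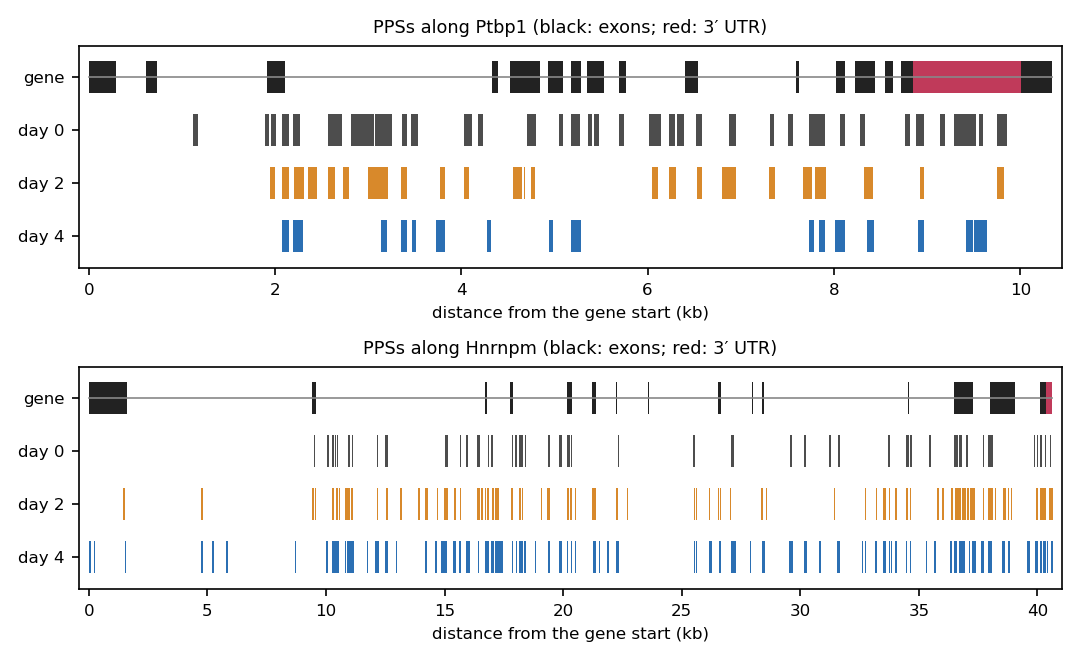
PPSs along Ptbp1 and Hnrnpm (x axis, distance from the start of the gene in kb, 5′ to 3′), with exons in black, the 3′ UTR of the transcript with the longest coding sequence in red, and 1 row of PPSs per day. Ptbp1 holds 36, 23 and 16 PPSs at days 0, 2 and 4, and Hnrnpm holds 51, 79 and 83.

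In introns as a whole, the day 4 shares moved further from the background than those in exons. Intronic coverage was higher at day 4 in 5 of 33 genes (2.7% of all genes) and lower in 7 (3.64% of all genes), and at day 2 it was higher in 2 (1.6%) and lower in 8 (2.58%). The introns of these genes start from coverages far above those of other genes, for which 5 points are a much larger step, so these shares are not of like genes. The genes that gained were Hnrnph2, Hnrnpm, Hnrnph3, Tra2a and Srsf6, and those that lost were Ptbp1, Srsf10, Srsf4, Hnrnpa3, Hnrnpu, Srsf7 and Hnrnpf. The median change was -0.49 points at day 4 and -1.36 points at day 2, the latter -0.71 without replicate 1 of day 2 and -0.83 without replicate 1 of day 0. The day 4 change took opposite signs in the nucleases at day 4, -1.81 points in ssRNase calls (pairs -2.60 to -0.26) and 1.89 points in dsRNase calls (pairs -0.02 to 2.36).

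3′ UTRs showed the largest single changes. The median coverage over the 3 days was 29.9%, 16.6% and 32.9%, against 6.11%, 4.58% and 7.19% over all genes with a PPS there. At day 2 it was lower in 20 of 34 genes (19% of all genes) and higher in 3 (8.98%), and at day 4 lower in 8 (12.7%) and higher in 10 (21.3%). Hnrnpm led the rises at day 4, with 4.94% and 11% at day 0, 35.7% and 51.7% at day 2, and 52.9% in both replicates of day 4. Hnrnpl gave 23.4% and 29.9% at day 0, 25.1% and 18.9% at day 2, and 68.0% and 40.7% at day 4. Hnrnph2 gave 16.6% and 16.4%, then 15.8% in both, then 65.7% in both. In each of these genes both day 4 replicates lay above all earlier ones. From day 0 to day 4, dsRNase coverage went from 6.08% to 52.9% in Hnrnpm, 29.9% to 68.0% in Hnrnpl and 32.3% to 65.7% in Hnrnph2. In ssRNase calls the values of these days were 4.94% and 5.70%, 0 and 27.2%, and 0 and 0. Over all members the median day 4 change was -0.59 points in ssRNase calls (pairs -1.34 to 0.76) and 1.70 in dsRNase calls (pairs -0.72 to 6.15). The 3′ UTRs of Hnrnpm, Hnrnpl and Hnrnph2 are short, at 263, 334 and 501 nt, so that a single PPS weighs heavily.

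The other rises at day 4 were in Tra2a (30.1% to 59.6%), Hnrnpul1, Hnrnpul2, Hnrnpk, Hnrnpd, Hnrnpf and Ptbp2. For Tra2a the replicates gave 30.1% and 22.4% at day 0 and 59.6% and 53.3% at day 4.

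The 3′ UTRs that lost protection at day 2 included highly protected ones. Hnrnph1 fell from 79.1% and 87.7% to 20.5% and 16.7% and reached 68.4% and 52.0% at day 4. Srsf2 fell from 61.9% and 63.7% to 28.1% in both replicates and returned to 65.4% and 59.6%. Ptbp1, by contrast, stayed low, with 46.8% and 28.7% at day 0, 3.98% and 10.5% at day 2, and 12.1% and 24.8% at day 4.

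In coding sequence the median change was -5.32 points at day 2 (pairs -8.66 to -4.42), with 5 genes higher (14.1% of all genes) and 14 lower (24.3%). At day 4 it was 1.08 points (pairs 0 to 2.6), with 7 genes higher (22.3%) and 10 lower (20.5%). In 5′ UTRs, of 25 genes with a PPS there, 5 were higher (11.6%) and 9 lower (17.9%) at day 4, and 2 were higher (16.2%) and 9 lower (14.6%) at day 2. Introns annotated as retained existed in 26 of the genes, and 23 held a PPS there. Their median change was 0 points at day 4 (pairs -1.73 to 0.65), with 3 genes higher (8.56%) and 4 lower (11.7%). At day 2 it was -0.50 points (pairs -2.22 to 0), with 1 gene higher (7.04%) and 6 lower (9.44%).

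The nucleases saw different parts of these transcripts. Exons and 3′ UTRs were covered more in dsRNase calls and introns more in ssRNase calls. The median of dsRNase minus ssRNase coverage was 4.75 points in exons at day 0 (replicates 1.83 and 7.53), 0.74 at day 2 (0.07 and -2.54) and 6.17 at day 4 (7.23 and 4.22). In 3′ UTRs it was 11.4, 3.99 and 18.8 points, positive in 31 genes and negative in 1 at day 4. In introns it was -7.47, -5.69 and -1.25 points, negative in 32 of 34 genes at day 0 and in 24 at day 4. Over all genes these medians lay between -1.35 and 1.64 points in the same classes and in coding sequence. The share of protected nucleotides that lay in exons was close to that of other genes in either nuclease at day 0, 38.6% against 39.5% in ssRNase calls and 65.6% against 67.7% in dsRNase calls.

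Single genes departed from this in both directions. At day 4, dsRNase coverage of exons exceeded ssRNase coverage by 28.6 points in Srsf3 (replicates 14.6 and 19.8), 22.1 in Hnrnpf (24.5 and 23.3) and 21.1 in Hnrnpa1 (36.1 and 18.1). Of their exonic positions, 46.0%, 64.2% and 79.8% recur elsewhere as 30-mers. The next genes in order, Hnrnpl (21.05 points) and Tra2a (20.5), have 4.18% and 9.93% of such positions. The reverse held for Srsf5 (-31.5 points, replicates -31.5 and -25.2), Hnrnpdl (-8.81, replicates -13.0 and -12.9) and Hnrnpm (-6.85, replicates -3.70 and -14.0). The Srsf5 difference was present at day 0 as well (-19.5 points, replicates -25.1 and -21.9) and was widest in its coding sequence, where ssRNase covered 68.9% and dsRNase 12% at day 4.

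**Figure D3:**
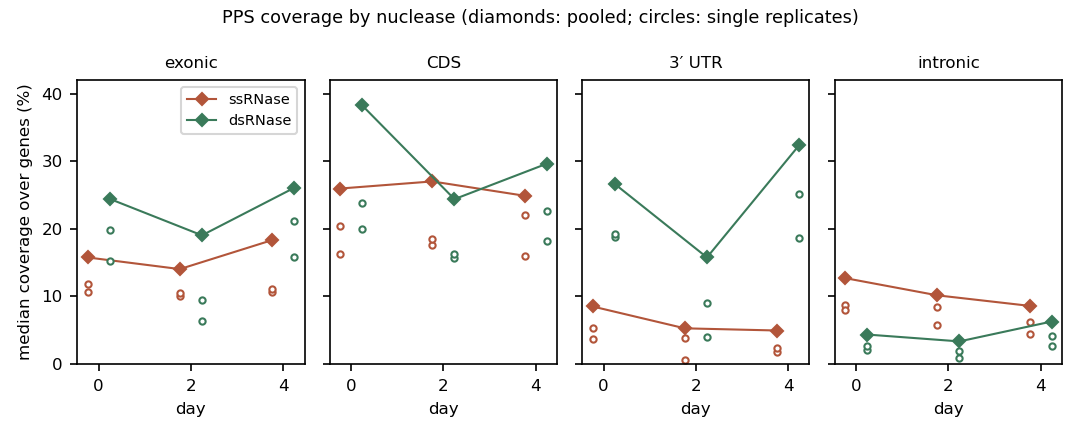
Median PPS coverage over the genes (y axis, percent) in exons, coding sequence (CDS), 3′ UTR and introns at days 0, 2 and 4 (x axis), for ssRNase and dsRNase calls. Diamonds are both replicates pooled and open circles single replicates; the pooled dsRNase values lie above those of ssRNase in exons and 3′ UTRs at each day and below them in introns, but at day 2 both single replicates go the other way in exons (9.42% against 10.07%, and 6.41% against 10.5%).

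Protection was uneven along introns. In the 203 introns of at least 300 nt, coverage was highest in the last 50 nt of the upstream exon (43.0%, 32.2% and 44.2% at the 3 days) and the first 50 nt of the downstream exon (33.8%, 30.3% and 31.5%). Within the intron, the 50 nt next to the 5′ splice site held 16.1%, 13.1% and 17.1%, the 50 nt next to the 3′ splice site 18.4%, 13.1% and 17.6%, and the interior 8.76%, 7.98% and 8.45%. Replicates of the interior ranged from 5.36% to 6.94%, below every replicate of the 5′ and 3′ flanks (8.59% to 15.6%). Over 83045 introns of all genes the order was similar at a lower level, with 3.21% and 2.38% in the flanks at day 0 and 0.94% in the interior.

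Poison exons were frequent places of protection. All 16, of 51 to 460 nt, had a PPS within 200 nt on the same strand at some day, and 13 had one at all 3 days. Among cassettes of the same kind in genes with an exonic PPS the share was 30.4% at some day, and in genes with a mean exonic coverage of 20% or more it was 67.8%. At days 0, 2 and 4, a PPS lay within reach of 15, 15 and 14 of the 16, and 15 were touched by one. Of the nucleotides in these exons, 34.3% were protected at day 0 (replicates 31.2% and 23.1%), 24.6% at day 2 (18.7% and 22.5%) and 32.3% at day 4 (29.8% and 29.9%). This was mostly seen with ssRNase, at 31.0%, 24.6% and 30.2%, and less with dsRNase, at 11.7%, 4.77% and 15.0%.

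Of these exons, 13 lie inside an intron, in 10 genes, and 3 lie beyond the last exon of the protein-coding transcripts, 1 in Hnrnpa1 and 2 in Hnrnpu. For the former, the rest of the introns of the same gene offered a comparison. Poison exons were more covered in 9, 8 and 9 of the 10 genes at the 3 days, with medians of 32.7%, 12.7% and 47.5% against 12.3%, 9.92% and 7.61%. Within replicates the count was 7 to 9 of 10. The 200 nt on either side of these exons lay between, with medians of 23.4%, 14.1% and 21.3%, except at day 2, when they exceeded the exons themselves. In ssRNase calls the count was 7, 9 and 9 of 10 and in dsRNase calls 5, 2 and 4, a difference that was not tested.

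**Figure D4:**
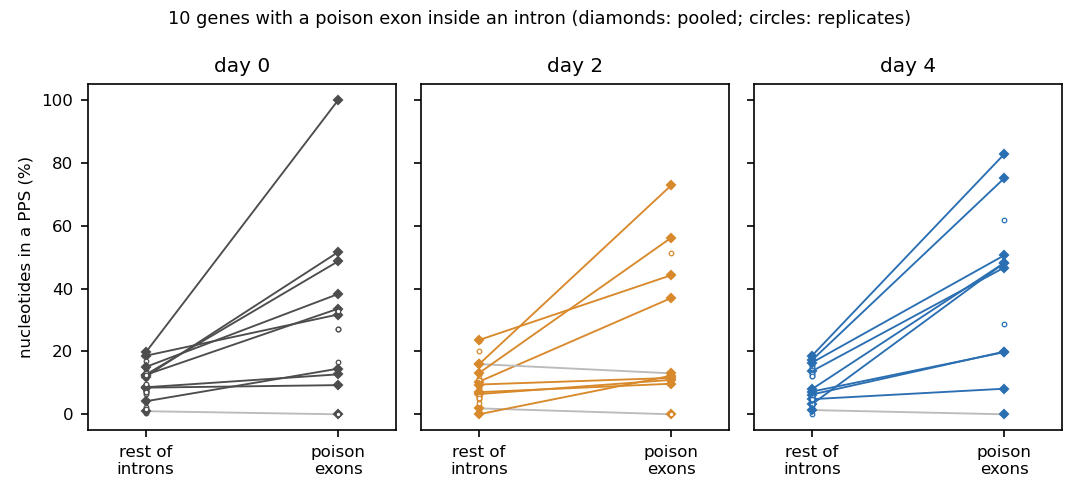
PPS coverage (y axis, percent of nucleotides) of poison exons and of the remaining introns of the same gene, for the 10 genes with a poison exon inside an intron, in 1 panel per day. Lines join the pooled values of a gene (diamonds), open circles are the replicates, and grey lines mark the genes in which the poison exon was not more covered, 1, 2 and 1 of 10 at days 0, 2 and 4.

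The poison exons of the Tra2 genes were protected throughout. That of Tra2a (chr6:49252803-49253108, 306 nt) was covered to 51.6%, 56.2% and 75.2%, with replicates of 51.6% and 27.1% at day 0, 56.2% in both at day 2, and 75.2% and 61.8% at day 4. The rest of its introns stood at 12%, 13.1% and 17.2%. That of Tra2b (chr16:22258865-22259261, 397 nt), the exon by which the Tra2b protein is known to limit its own level, was covered to 38.3%, 11.6% and 50.6%, with replicates of 27.2% and 38.3%, then 11.6% in both, then 50.6% in both. Its only protected stretch at day 2 was the purine-rich one shown above.

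Of the 3 poison exons of Srsf4, the upstream pair had no coverage left at day 4. In order along the transcript, they were covered to 47.8%, 33.2% and 19.2% at day 0, to 43.0%, 27.2% and 39.9% at day 2, and to 0, 0 and 24.2% at day 4. The first owed its values to replicate 1 alone at day 0 (score 6.82) and replicate 2 alone at day 2 (score 9.98). The second was covered to 33.2% in both replicates of day 0, but at day 2 in replicate 2 alone (score 5.4). Only the most downstream kept its PPS, at the 5′ splice site shown above, in both replicates of each day (19.2%, 39.9% and 24.2%). The exon of Srsf7 (chr17:80204622-80205081, 460 nt) fell from 48.7% and 33.0% at day 0 to 13.0% in both replicates and then 19.8% in both. The exon of Srsf3 (chr17:29039454-29039909, 456 nt) was covered to 12.7%, 11% and 19.96%. Its day 0 PPS came from dsRNase replicate 2 alone, and the later ones from ssRNase in both replicates.

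Srsf11 has 2 such exons. One (chr3:158023243-158023359, 117 nt) went from 17.9% and 18.8% at days 0 and 2 to 93.2% at day 4 (replicates 55.6% and 93.2%). This exon was covered to 17.9%, 18.8% and 55.6% in ssRNase calls and to 0, 0 and 93.2% in dsRNase calls. The day 2 value came from replicate 1 alone, and replicate 2 of day 4 had dsRNase calls only. The other was at 0 at each day with PPSs in its flanks only. The exon of Srsf9 held low-scoring PPSs of replicate 1 only, at 14.5% and 12.3%, and none at day 4.

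In the hnRNPs, the exon of Hnrnpl (chr7:28817335-28817404, 70 nt) was wholly protected at day 0 in both replicates and with either nuclease, then covered to 44.3% at day 2 (0 and 44.3%) and 82.9% at day 4 in both replicates. That of Hnrnpd (chr5:99962098-99962204, 107 nt) was covered to 31.8%, 72.9% and 46.7%. The exon of Hnrnpa1 (chr15:103246346-103246421, 76 nt) gave 56.6%, 55.3% and 51.3%, from ssRNase calls, and the replicates of day 4 were 51.3% and 0. The downstream exons of Hnrnpu (chr1:178323966-178324016, 51 nt, and chr1:178323620-178323713, 94 nt) gave 88.2%, 80.4% and 66.7%, and 73.4%, 0 and 71.3%. The exon of Hnrnpll was the only one of the 16 with a PPS within 200 nt at fewer than 2 days, from a single replicate of day 4 (48.2%).

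**Figure D5:**
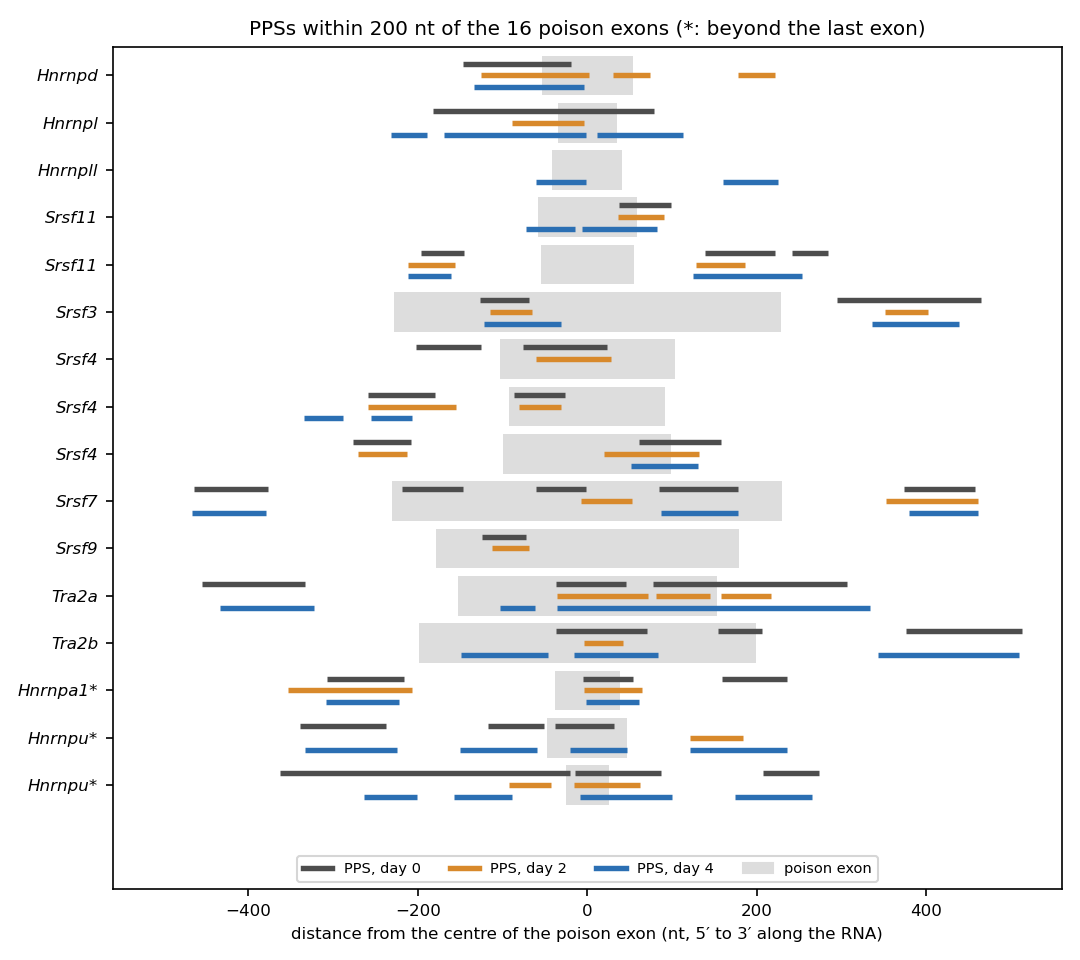
PPSs (coloured bars, 1 row per day) within 200 nt of the 16 poison exons (grey boxes), against distance from the exon centre in nt, 5′ to 3′ along the RNA. Bars of the 3 days coincide at 10 places in 9 genes where the shared stretch overlaps the exon, and at further places in the flanks. The second exon of Srsf11 has bars in its flanks only.

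Short words known from these proteins were counted on the sense strand of protected and unprotected sequence of the genes, in occurrences per kb with overlaps allowed. The uridine tract TTTTT, a site of hnRNP C, was rarer in protected exonic sequence (3.66, 3.89 and 3.82 per kb at the 3 days) than outside it (7.85, 7.44 and 7.73), and in introns the values were 3.22, 2.96 and 3.56 inside against 10.6, 10.5 and 10.5 outside. In protected exons of all genes TTTTT occurred 1.26, 0.90 and 1.19 times per kb. The enhancer word GAAGAA occurred 0.91, 0.92 and 1.07 times per kb in protected exons and 0.64, 0.67 and 0.57 times outside, against 1.5, 1.5 and 1.61 in protected exons of all genes. For the PTB word CTCTCT in introns the values were 0.11, 0.10 and 0.05 inside, from 5, 4 and 2 occurrences, against 0.65, 0.65 and 0.65 outside. The hnRNP L word CACACA gave 0.17, 0.19 and 0.16 inside against 0.69, 0.68 and 0.69. In introns the hnRNP A1 word TAGGG and the hnRNP H/F word GGGA were slightly more frequent inside, at 0.86, 0.76 and 0.86 against 0.74, 0.74 and 0.73, and 4.52, 4.73 and 4.58 against 3.78, 3.77 and 3.77. Such counts describe the letters and not a bound protein, and how easily reads align to low-complexity sequence was not tested.

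Sites in these genes persisted more often than elsewhere. PPSs of the 3 days were joined where they overlapped, and 464 of 1489 joined regions (31.2%) were present at all 3 days, against 14.4% of the 220639 regions of the whole lists. Restricted to PPSs with calls of both replicates, the shares were 16.1% and 8.02%. PPSs of these genes were also longer (medians of 73, 63 and 70 nt against 63, 58 and 62 nt) and more often found in both replicates (44.0%, 39.3% and 47.1% against 30.8%, 30.8% and 35.8%), and the part of length and reproducibility in the persistence was not tested. The highest-scoring PPS lay in the coding sequence of Hnrnpu at day 0 (chr1:178336968-178337245, score 92.8, 9 calls) and at day 2 (chr1:178337229-178337476, score 79.7, 8 calls). At day 4 it lay in Hnrnph1 (chr11:50382339-50382715, score 102, 8 calls), with 179 exonic and 198 intronic nt.

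The kinases that phosphorylate SR proteins, and Tnpo3, which imports them into the nucleus, were examined as neighbours of the pathway. Of these 8 genes, 7 had an exonic PPS, of which 3 were higher and 1 lower at day 4 and 1 higher and 4 lower at day 2. Clk1 rose from 49.2% to 63.0% and Clk3 from 8.96% to 26.5%, both kinases of nuclear speckles. Srpk1, a mainly cytoplasmic SR kinase, fell from 33.2% to 18.2%, after 11.2% at day 2. The rule and the background shares are those given for exons above.

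Of 38 other splicing regulators, 36 had an exonic PPS, of which 7 were higher and 6 lower at day 4, and 3 higher and 17 lower at day 2. The largest changes at day 4 were a rise of U2af1, a subunit of the factor that reads 3′ splice sites, from 16.3% to 37.6%, and falls of Taf15 from 36.8% to 18.6% and of Rnps1, a component of the exon junction complex, from 33.1% to 21%. RNA helicases (47 of 53 with an exonic PPS) had 1 higher and 19 lower at day 2, and ribosomal protein genes (69 of 84) had 6 and 24. The share lower at day 2 was thus 64.7% in the SR protein and hnRNP genes, 57.1% in the kinase list, 47.2% in the other regulators, 40.4% in the helicases and 34.8% in the ribosomal protein genes. These shares were not compared by a test. The introns of ribosomal protein genes differed from those of the splicing factors, being lower at day 4 in 33 of 66 genes (3.64% of all genes).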

How the data were processed

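PIP-seq libraries of MEL cells were prepared with an ssRNase or a dsRNase, with proteins present or removed, in 2 replicates at 3 days, 24 libraries in 12 groups taken from the sample labels. The study's methods call the replicates biological. The authors trimmed reads with cutadapt (version 1.2.1), collapsed identical reads, aligned them with TopHat2 (version 2.0.10) with multi-mapping reads allowed, removed PCR duplicates, and called PPSs with a Poisson test of CSAR on footprint against protein-free libraries. The deposited file of each day lists merged PPSs in mm10 with strand, the names of the calls joined, and the score of that test. Merging lets a replicate call take the ends of a longer PPS, and multi-mapping reads can place a PPS in a near-identical copy.

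PPSs of 20 to 40 nt were left out. PPSs were intersected by strand with GENCODE M21. Exonic nucleotides are those in any exon of a protein-coding transcript, and intronic those between the first and last of these exons that lie in none of them. Parts of a gene beyond these exons are in neither class. Coding sequence and UTRs follow the transcript with the longest coding sequence. The annotation names poison exons only where an NMD transcript contains them, so others are not counted. Replicate and nuclease coverage was taken from the call names. The pooled change joins both replicates and can lie outside the range of pairs. Positions were called repeated where the 30-mer centred on them occurs elsewhere in the genome. Coverage and change scripts were tested on simulated data, where nearly all planted changes were called but so was a sizeable share of unchanged genes. The unit of replication is the library set of a day, n = 2, and no test was run across genes. Alternatives were all PPS lengths, PPSs of both replicates, 1 nuclease, a score of 10 or more, all transcripts, unrepeated positions, equal numbers of PPSs per day, a 10-point change, other windows, and each replicate left out.

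Members and lists were chosen with earlier results of these data known. Genes given values are the largest exonic, intronic and 3′ UTR changes by day, those with a lasting PPS at a poison exon, the largest nuclease differences, the highest scores and textbook members. Further genes were added after their values were seen. 1 gene that met the name rule is not reported here. Python 3.11.15, numpy 2.4.6, pandas 2.3.3, numba 0.67.0 and matplotlib 3.10.9 were used.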

Additional observations from a re-analysis of the deposited data

Results flagged for a closer look

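In 6 cases all pairs of replicates moved one way in ssRNase calls and the other way in dsRNase calls, and none of these differences was tested. From day 0 to day 4, the exonic coverage of Hnrnpr changed by -5.06 points in ssRNase calls and 2.03 points in dsRNase calls, a difference of 7.09 points. The exonic coverage of Ptbp2 moved by -3.10 to -1.36 points over the pairs of ssRNase replicates and by 1.95 to 14.0 points over those of dsRNase, although the pooled ssRNase change was 2.56 points and the pooled changes differed by 13.4 points. From day 0 to day 2, the exonic coverage of Srsf9 changed by 5 points with ssRNase and -4.75 points with dsRNase, a difference of -9.75 points. In introns from day 0 to day 4, Tra2b changed by -1.23 and 6.4 points (difference 7.63), and Hnrnpul1 by -1.66 and 1.96 points (difference 3.63). The introns of Ptbp2 changed by 1.12 and -0.40 points from day 0 to day 2 (difference -1.51), which is under the 5 points used for a change in either nuclease. With 2 replicates a day, no group was large enough to be searched for a replicate that stands apart.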

How the results depend on the processing

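Of the called changes of single genes (in exons 18 at day 4 and 25 at day 2, in introns 12 and 10), 7 in exons and 3 in introns had the opposite sign in 1 nuclease or without repeated positions. At day 4 these were Hnrnpa1 exons (-3.35 points without repeated positions), Hnrnpa3 and Srsf2 exons (4.96 and 18.0 with ssRNase), and Hnrnpf and Srsf10 introns (0.74 and 0.46 with dsRNase). At day 2 they were the exons of Hnrnpa3, Hnrnpf, Hnrnpul1 and Srsf2 (5.25, 1.41, -2.65 and 1.10 with ssRNase) and the introns of Hnrnpa1 (1.77 with dsRNase). The median exonic change from day 0 to day 4 stayed between -0.95 and 0.62 points under all 13 alternatives. That from day 0 to day 2 remained negative, at -7.32 points with all PPS lengths, -7.23 with PPSs of both replicates, -3.05 with ssRNase calls, -7.07 with exons of all transcripts and -7.22 without repeated positions, and -9.10 to -8.27 with a replicate left out. The intronic change at day 2 was -0.74, -0.80, -0.86 and -0.44 points with all lengths, both replicates, ssRNase calls and all transcripts, -0.86 at scores of 10 or more, and -1.43 to -0.71 with a replicate left out. At day 4 it was -1.81 points with ssRNase and 1.89 with dsRNase. The 3′ UTR change at day 4 was 2.41 points at scores of 10 or more and -0.88 to 2.57 with a replicate left out. Genes lower at day 4 numbered 6 with both replicates, 5 with ssRNase, 6 with dsRNase, 5 at scores of 10 or more, 5 at a change of 10 points and 6 to 8 with a replicate left out. Genes higher at day 4 numbered 4 with ssRNase, 3 with all transcripts and 5 at 10 points. At day 2, 11 were lower with ssRNase, and 1 was higher at 10 points. Of these settings, only the single nucleases have a share of all genes, given above, so the other counts have no background. Poison exons near a PPS made up 81.25% with both replicates, 87.5% with dsRNase, 81.25% at scores of 10 or more, 93.75% when overlap was required, and 93.75 to 100% with a replicate left out, the lowest value without replicate 2 of day 4. The dsRNase excess in exons was 0.63 points at day 0 with all transcripts, and at day 4 it was 3.14 with both replicates, 2.6 at scores of 10 or more, 3.4 with all transcripts and 3.98 without repeated positions. The cause of these shifts was not tested. Taking the same number of PPSs from each list, or leaving out positions shared with another gene, moved no result beyond its spread. The 3′ UTR and poison exon results with all transcripts, poison exons without repeated positions, and nuclease differences within 1 nuclease give no value. No paired analysis was possible because the results come from no test. The read depth behind the lists is unknown, so an absent PPS is not shown to be absent protection.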

Other observations

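Of the 1489 joined regions of these genes, 210 were present at day 0 only, 186 at day 2 only and 198 at day 4 only. These were 14.1%, 12.5% and 13.3%, against 19.5%, 19.6% and 20.9% of the regions of the whole lists. A further 181 were present at days 0 and 4 and absent at day 2, or 12.2% against 8.29%.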
